A study of Mus musculus with 27 samples.

Results

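The core autophagosome machinery was taken here as a list of 34 genes that carry autophagy from its first kinase to the cargo receptors. Members were the probes whose gene name on the array is a listed symbol, a rule that uses no measured value, although the list was drawn up with earlier results of these data known. Of the 34 genes 33 were found in this way, with 45 probes among the 55681 probes and 35527 gene names of the array. *Atg101*, a subunit of the ULK1 complex, is carried under its older symbol *9430023L20Rik* by 1 probe, which is described beside the others and not counted with them.

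Macroautophagy encloses cytoplasm, aggregates or organelles in a double membrane, the autophagosome, which then fuses with lysosomes. The ULK1 kinase complex starts the process and the class III PI3-kinase complex marks the membrane with a phosphoinositide that WIPI proteins bind, while ATG9 and ATG2 supply lipid. A pair of ubiquitin-like conjugation reactions, run by ATG7, ATG3, ATG10 and the ATG12-ATG5-ATG16L1 complex, then joins the ATG8 proteins (the LC3 and GABARAP families) to lipid, and cargo receptors such as SQSTM1 bind both ubiquitin and ATG8. In skeletal muscle autophagy removes worn mitochondria, is induced by fasting through FOXO3, and wastes or weakens fibers when it runs in excess or is blocked.

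Single myofibers of the tibialis anterior, a fast leg muscle, came from male mice that the labels give as 3 months old in every group. WT were wild type mice, with 8 myofibers from 2 mice, which the study's methods describe as GFP-positive C57BL/6 animals and its results as littermates of the mutants. Smn1deltaSKM mice, with 12 myofibers from 3 mice, carry a floxed exon of *Smn1*, the mouse gene of the survival motor neuron protein, that is removed in muscle fibers by a Cre recombinase under the human alpha-skeletal actin promoter. Other cells of the animal keep the gene. Smn1deltaSKM+AFS mice, with 7 myofibers from 2 mice, are the same mutants after injection of amniotic fluid stem (AFS) cells from GFP-positive donors into the tail vein. The methods place the injection at the age on the label and the collection about a month later, and its text counts the treated fibers and mice differently in different places, so the labels were followed. Each myofiber was amplified by PCR and hybridized alone to an Agilent mouse array in 1 colour.

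Values are log2 signals relative to the 75th percentile of the array, so that 1 unit is a 2-fold difference, and a level can be compared between samples for the same probe but not between probes. Differences are between means of mice, tested with limma over all genes, and "called" stands for an adjusted p below 0.05. The brightest probe stood for each gene. The following 60-base probes are printed because the results turn on them: the 7 members called between Smn1deltaSKM and WT, the further probe of *Atg4c*, and the pair of *Wdr45* probes that disagree. Positions are those of the array annotation, build mm9, and capitals mark the 44 bases that the *Atg4c* probes share, which makes them no independent measurements.
Ulk1, chr5:111213514-111213573, minus strand: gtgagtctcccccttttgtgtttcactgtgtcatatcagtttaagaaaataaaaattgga
Atg13, chr2:91514791-91514850, minus strand: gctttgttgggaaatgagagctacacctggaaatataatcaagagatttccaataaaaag
Atg3, chr16:45183811-45183870, plus strand: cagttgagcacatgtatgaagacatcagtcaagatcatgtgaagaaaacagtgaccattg
Atg10, chr13:91075030-91075089, minus strand: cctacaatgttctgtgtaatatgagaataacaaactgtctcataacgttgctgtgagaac
Atg4c, brighter probe, chr4:98926380-98926439, plus strand: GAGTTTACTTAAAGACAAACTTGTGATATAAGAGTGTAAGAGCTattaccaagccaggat
Atg4c, other probe, chr4:98926364-98926423, plus strand: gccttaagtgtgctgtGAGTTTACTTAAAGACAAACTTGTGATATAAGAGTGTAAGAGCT
Map1lc3a, chr2:155103435-155103494, plus strand: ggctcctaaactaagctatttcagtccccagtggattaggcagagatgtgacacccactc
Gabarapl1, chr6:129492254-129492313, plus strand: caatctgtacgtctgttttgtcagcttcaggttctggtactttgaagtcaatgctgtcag
Wdr45, brighter probe, chrX:7305017-7305076, plus strand: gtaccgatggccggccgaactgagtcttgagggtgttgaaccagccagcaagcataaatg
Wdr45, other probe, chrX:7305210-7305269, plus strand: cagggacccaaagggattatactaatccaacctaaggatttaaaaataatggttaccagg

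All 8 WT arrays lay on 1 slide and were scanned on scan day 3, which held no other group, so that slide, scan day and genotype cannot be told apart in a comparison with WT. On scan day 1 lay 3 arrays of Smn1deltaSKM mouse 1 and 2 of Smn1deltaSKM+AFS mouse 1, and all others of these groups were scanned on scan day 2. Between 23871 and 34012 probes had values on a WT array, 23183 to 37595 on a Smn1deltaSKM array and 25887 to 30498 on a Smn1deltaSKM+AFS array. As a check of the labels, a probe of *Smn1* fell by 1.68 in Smn1deltaSKM against WT (standard error 0.369, limma, adjusted p = 0.0205), while another differed by 0.19 (adjusted p = 0.717). The place of these probes relative to the removed exon was not worked out. At least 9 of 10 myofiber markers had values on every array, with *Ckm* (-1.76), *Mylpf* (-1.99) and *Actn3* (-1.14) called lower and the fast myosin *Myh1* called higher (2.20) in Smn1deltaSKM. Markers of other cells were present and moved with the groups: the summed log2 level of 6 fibroblast markers ran from -0.32 to 6.86 in WT (median 1.20), from 0.61 to 5.11 in Smn1deltaSKM (median 3.51) and from 0.96 to 4.50 in Smn1deltaSKM+AFS (median 3.91). *Dcn*, a fibroblast proteoglycan, had a value on 1 WT and all 12 Smn1deltaSKM arrays, and *Pdgfra* on 0 and 1. The summed level of 6 immune markers ran from 7.63 to 8.30, 7.55 to 8.03 and 7.85 to 8.29 over the groups in the order WT, Smn1deltaSKM, Smn1deltaSKM+AFS. Their medians were 8.00, 7.86 and 8.09. The sum is mostly the signal of *Itgam* (means 7.84, 7.70 and 7.95) and says little of the others. Of the 6 immune markers *Cd68*, a lysosomal antigen of macrophages, rose by 2.99 (limma, adjusted p = 0.0375) and *Ptprc*, the leukocyte antigen CD45, by 1.33 (adjusted p = 0.0218) in Smn1deltaSKM against WT, while *Csf1r* (-0.50), *Itgam* (-0.14) and *Cd3e* (0.75) were not called. With dim signals kept, other probes stood at 0.39 and 0.66 for *Csf1r* and at -0.07 and 1.23 for *Itgam*. *Emr1*, the remaining marker, had values on 2 WT and 8 Smn1deltaSKM arrays and was not tested. For 6 endothelial markers the medians were 3.45, 3.66 and 3.83. Satellite cell markers had medians of -1.16, -1.55 and -1.88, smooth muscle and pericyte markers of -0.16, 0.98 and 0.18, Schwann cell markers of -2.41, -1.91 and -2.42, and erythroid markers of -0.99, -0.27 and 3.47, all in the order WT, Smn1deltaSKM, Smn1deltaSKM+AFS. The part of these cells in the results below was not tested.

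In Smn1deltaSKM myofibers most tested members lay below WT. Genes of initiation and of ATG8 conjugation were among the members called lower, and 1 member, the ATG8 gene *Gabarapl1*, was called higher. Of the 30 members tested limma called 7, which is 23.3%, beside 21.7% of all 17059 genes. Lower were 6 members, where 14.1% of all genes were called lower. Among the 30 are 3 that had values on under 75% of the arrays of a group and passed the filter through the other group, *Atg10* and *Atg7* with 58.3% of Smn1deltaSKM arrays and *Nbr1* with 62.5% of WT arrays. Without them 6 of 27 members were called, 22.2%. The share of calls is thus near the background and is no result about the machinery. The signs were less even: 25 of 30 differences, 83.3%, lay below 0 against 55.5% of all genes, and the median difference was -0.61 beside -0.14 over all genes. *Atg10*, *Atg7* and *Nbr1* are all among the 25. With the filter set over all 27 arrays these 3 were not tested. Then 22 of 27 differences lay below 0, with a median of -0.57 beside -0.11 over all genes. Among 29 members with values in every mouse, the mice of the groups did not overlap for 17, 15 of them lower and 2 higher in Smn1deltaSKM, beside 55.4% of all genes.

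**Figure D1:**
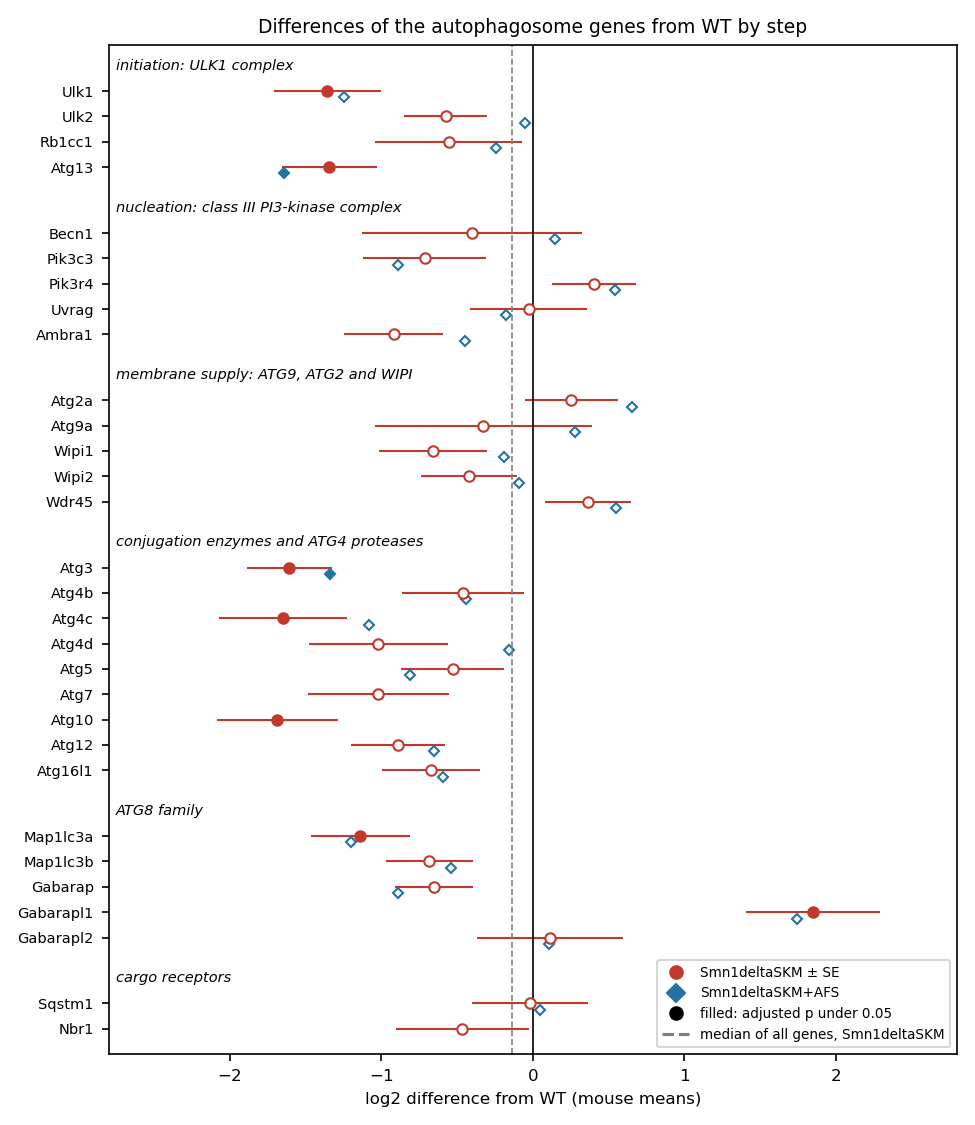
Log2 difference of each tested member from WT, grouped by step, for Smn1deltaSKM (red circles, bars are the standard error from limma) and Smn1deltaSKM+AFS (blue diamonds), with filled symbols for an adjusted p under 0.05 and a dashed line at the median of all genes in the former comparison. The 9 conjugation genes, among them Atg10 and Atg7, which passed the filter through WT, all lie left of 0 in Smn1deltaSKM. Gabarapl1 stands alone at 1.85.

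The 4 tested genes of the ULK1 complex all had differences below 0 and 2 of them were called, 50% beside 21.7% of all genes. *Ulk1*, the kinase that starts autophagy, lay at 3.62 and 3.85 in the WT mice and at 1.86, 2.31 and 2.96 in the Smn1deltaSKM mice. Every mutant mouse was below both WT mice, and 8 of 12 mutant myofibers were below the lowest of 8 WT myofibers (2.88). The difference was -1.36 (standard error 0.353, limma, adjusted p = 0.0320), a 2.56-fold lower signal. This call was lost under 10 of 21 alternatives, among them each of the other normalizations and the authors' table.

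*Atg13*, the adaptor that holds ULK1 to its complex, lay at 0.66 and 1.08 in WT and at -0.27, -0.83 and -0.31 in Smn1deltaSKM. Values were available on 6 WT and 10 Smn1deltaSKM arrays and did not overlap, from 0.53 to 1.44 against -1.02 to 0.02. It fell by 1.34 (standard error 0.313, limma, adjusted p = 0.0238), or 2.54-fold. For *Ulk2*, the close relative of *Ulk1*, the mice lay at -0.27 and -0.54 against -0.74, -1.03 and -1.16, apart but not past the threshold (-0.57, adjusted p = 0.155). *Rb1cc1*, which encodes the scaffold FIP200, overlapped between the groups on its brighter probe (-0.56, adjusted p = 0.425) and on its other probe (-0.97, adjusted p = 0.216 over all probes). The *Atg101* probe was level, at 3.30 and 3.1 in WT and 3.18, 3.27 and 3.29 in Smn1deltaSKM (0.05, adjusted p = 0.902).

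**Figure D2:**
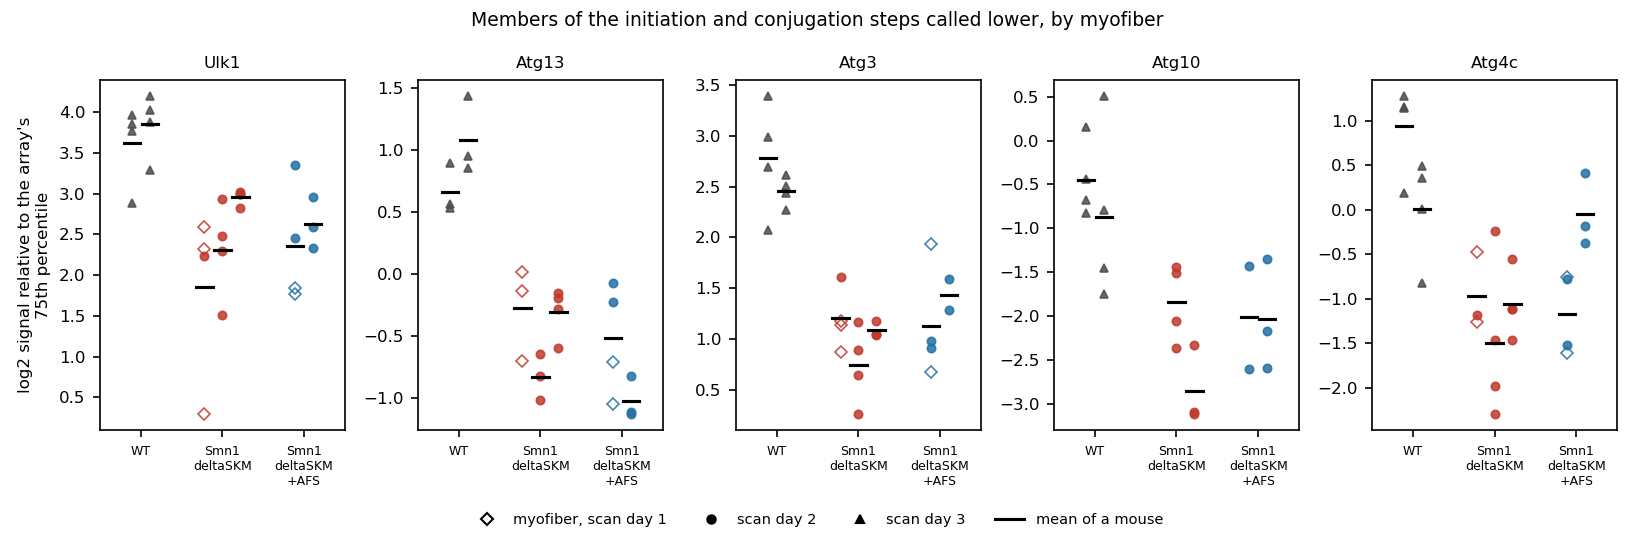
Log2 signal relative to the array's 75th percentile in each myofiber for the 5 called members of initiation and conjugation, with columns of points for the mice of a group, bars at the mean of a mouse and open diamonds for scan day 1. For Atg13 and Atg3 no Smn1deltaSKM myofiber with a value reaches the lowest WT myofiber.

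None of the 5 tested genes of nucleation was called. For *Becn1*, the regulatory subunit of the PI3-kinase complex, the WT mice lay at -0.54 and -0.50, and the Smn1deltaSKM mice at 0.83, -1.58 and -2.0. The 3 myofibers of mouse 1 scanned on day 1 lay at -0.42, 1.72 and 3.20 and its remaining myofiber at -1.19. With all arrays the difference was -0.40 (adjusted p = 0.71), whereas without the arrays of scan day 1, an alternative added after the data were seen, it was -1.07 (limma, adjusted p = 0.0489). *Uvrag*, another partner of BECN1, was also highest in mutant mouse 1 (0.09, against -1.18 and -0.86) and stood at -0.03 overall. *Pik3c3*, the lipid kinase itself, lay at 0.92 and 1.01 in WT and at 1.09, -0.20 and -0.13 in Smn1deltaSKM (-0.71, adjusted p = 0.223). *Ambra1*, which links BECN1 to ULK1 control, was lower in each mutant mouse (0.69 and 0.87 against -0.44, -0.11 and 0.14) without passing the threshold (-0.92, adjusted p = 0.0767). *Pik3r4*, the anchoring subunit, was the other member for which all mutant mice lay above WT (-1.66 and -1.35 against -0.86, -1.25 and -1.19), at 0.41 (adjusted p = 0.307).

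Genes of membrane supply were not called either and differed in sign, with 2 above and 3 below 0. *Atg9a*, the lipid scramblase of the seed vesicles, behaved like *Becn1*: WT mice lay at 2.22 and 2.12, Smn1deltaSKM mice at 3.43, 0.85 and 1.26, with 3.43, 4.62 and 4.58 in the day 1 myofibers of mouse 1 and 1.09 in its remaining myofiber. The difference was -0.33 with all arrays (adjusted p = 0.762) and -1.11 without scan day 1 (limma, adjusted p = 0.0136). *Wipi1* (-0.66) and *Wipi2* (-0.42), the phosphoinositide effectors, had all mutant mice below WT, with adjusted p = 0.205 and 0.352. *Atg2a*, a lipid transfer protein, differed by 0.26 (adjusted p = 0.565).

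The probes of *Wdr45*, a further WIPI protein, gave opposite signs although they lie within 1 short stretch of the X chromosome, as printed above. The brighter probe lay at 1.86 and 1.91 in WT and 1.90, 2.31 and 2.54 in Smn1deltaSKM, with a difference of 0.36 (adjusted p = 0.368). The other lay at -0.29 and -0.32 in WT and at -1.52, -1.27 and -1.11 in Smn1deltaSKM, a difference of -0.99 that limma called over all probes (adjusted p = 0.0410). Over all probes 8 of 37 tested probes of members were called, beside 21.3% of all probes. Which of the probes follows the gene was not tested.

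**Figure D3:**
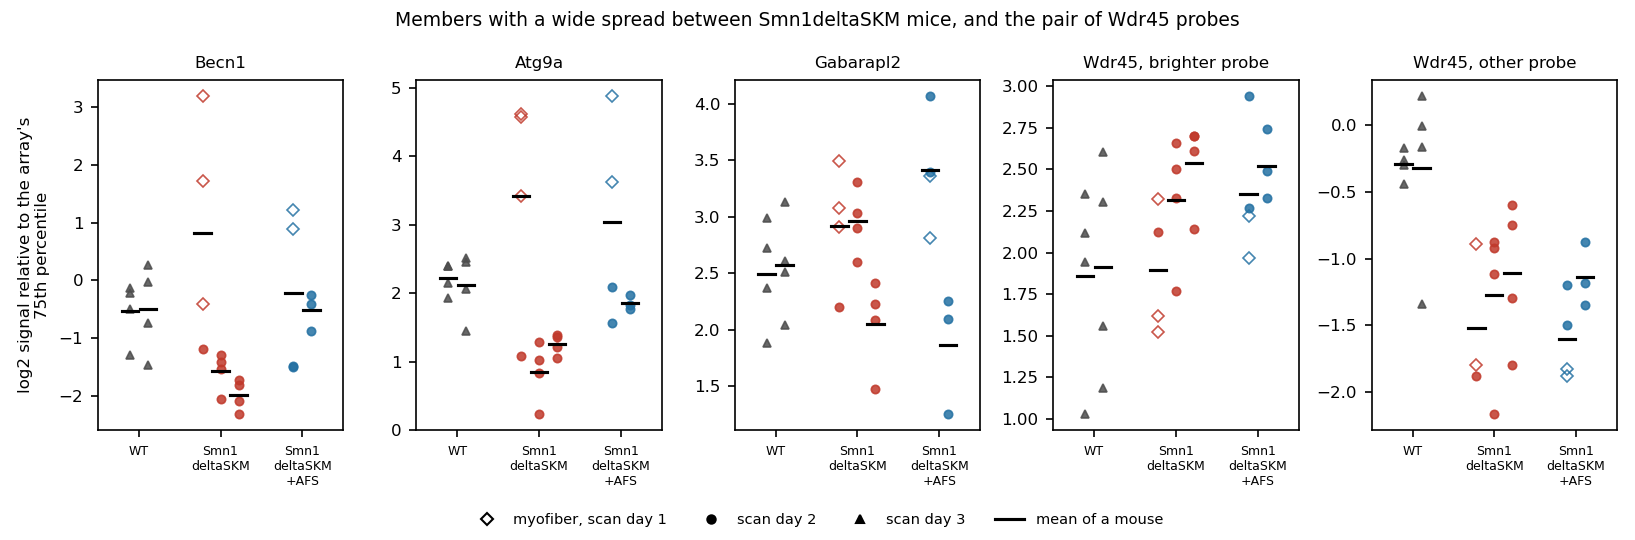
Log2 signal relative to the array's 75th percentile in each myofiber for Becn1, Atg9a and Gabarapl2 and for both Wdr45 probes, drawn as in the plot of initiation and conjugation genes. The highest values of Becn1 and Atg9a are open diamonds, the arrays of scan day 1, and the Wdr45 probes move in opposite directions.

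Conjugation was the step with the most members, and all 9 tested genes lay below 0 (median -1.02). Of these 3 were called, 33.3% beside 21.7% of all genes. The 9 include *Atg10*, which was called, and *Atg7*, which was not. Both passed the filter through WT, where they are brighter, so the counts and the median of this step rest in part on the filter. *Atg3*, the enzyme that passes LC3 to its lipid, lay at 2.78 and 2.46 in WT and at 1.20, 0.74 and 1.09 in Smn1deltaSKM. All 11 mutant myofibers with a value, at most 1.61, were below the lowest WT myofiber at 2.07. The difference of -1.61 (standard error 0.280, limma, adjusted p = 0.0123), a 3.05-fold lower signal, had the lowest p of the members.

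*Atg10*, the enzyme that joins ATG12 to ATG5, was well above background on all 8 WT and 7 of 12 Smn1deltaSKM arrays, none of them from mouse 1. It lay at -0.45 and -0.87 in WT and at -1.84 and -2.85 in the remaining mutant mice, a difference of -1.69 (standard error 0.399, limma, adjusted p = 0.0279). Since it passed the filter through WT, where it is brighter, and mutant mouse 1 dropped out of the fit, this call describes the mutant arrays with a value and supports nothing further. Its other probe was brighter but had too few values for the test, on 4 of 8 WT, 7 of 12 Smn1deltaSKM and 6 of 7 Smn1deltaSKM+AFS arrays. It was well above background on 8, 11 and 7 of these arrays, so that most of its missing values came from other spot flags. On this probe the mice lay at 0.58 and 0.09 in WT, at -1.97, -1.04 and -1.01 in Smn1deltaSKM and at 0.11 and -0.29 in Smn1deltaSKM+AFS. *Atg4c*, a protease that trims and releases ATG8 proteins, lay at 0.94 and 0.01 in WT and at -0.97, -1.50 and -1.06 in Smn1deltaSKM, with a difference of -1.65 (standard error 0.423, limma, adjusted p = 0.0307). The overlapping probe fell short of the threshold at -1.10 (adjusted p = 0.0839 over all probes).

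The other genes of this step were not called. *Atg12*, the ubiquitin-like partner of ATG5, differed by -0.89 (adjusted p = 0.0718) on a probe with values on every array. Its second probe, with values on 3 WT and 6 Smn1deltaSKM arrays, lay at 1.01 and -0.45 in WT and at 2.13, 1.06 and 0.28 in Smn1deltaSKM, so its probes also disagree in sign. *Atg4d* (-1.02, adjusted p = 0.136), *Atg7* (-1.02, adjusted p = 0.149) and *Atg16l1* (-0.67, adjusted p = 0.161) had all mutant mice below WT, and *Atg4b* (-0.46) and *Atg5* (-0.53) did not.

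The ATG8 family was split. *Gabarapl1* lay at 3.71 and 3.62 in the WT mice and at 5.35, 5.74 and 5.47 in the Smn1deltaSKM mice. Every one of the 12 mutant myofibers, from 4.84 to 6.07, was above the highest of 8 WT myofibers (4.14). It rose by 1.85 (standard error 0.442, limma, adjusted p = 0.0252), or 3.61-fold. In the mouse this gene is known as a FOXO-responsive member of the GABARAP group.

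*Map1lc3a*, an LC3 gene, went the other way, from 5.99 and 5.38 in WT to 4.93, 4.57 and 4.14 in Smn1deltaSKM. Single myofibers overlapped, with 5 of 12 below the lowest WT value of 4.33, which itself stood apart from the other WT myofibers (5.63 to 6.15). It fell by 1.14 (standard error 0.327, limma, adjusted p = 0.0423), or 2.20-fold, a call that was lost under 13 of 21 alternatives, among them each of the other normalizations, the authors' table, no filter and the removal of scan day 1. *Map1lc3b*, the LC3 form whose protein is the usual autophagosome marker, lay at 4.26 and 3.81 against 3.37, 3.36 and 3.32 and was not called (-0.68, adjusted p = 0.115).

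*Gabarap* gave -0.65 on its brightest probe (5.12 and 4.85 against 4.50, 4.14 and 4.35 by mouse, adjusted p = 0.102), and -0.29 and -0.34 on the others, for which mutant mouse 1 lay above both WT mice. *Gabarapl2* was level at 0.11 (adjusted p = 0.878), with mutant mice at 2.92, 2.96 and 2.05 around the WT mice at 2.49 and 2.57. The direction within the family was the same for *Gabarapl1*, *Map1lc3a*, *Map1lc3b* and *Gabarap* under each scaling tried.

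**Figure D4:**
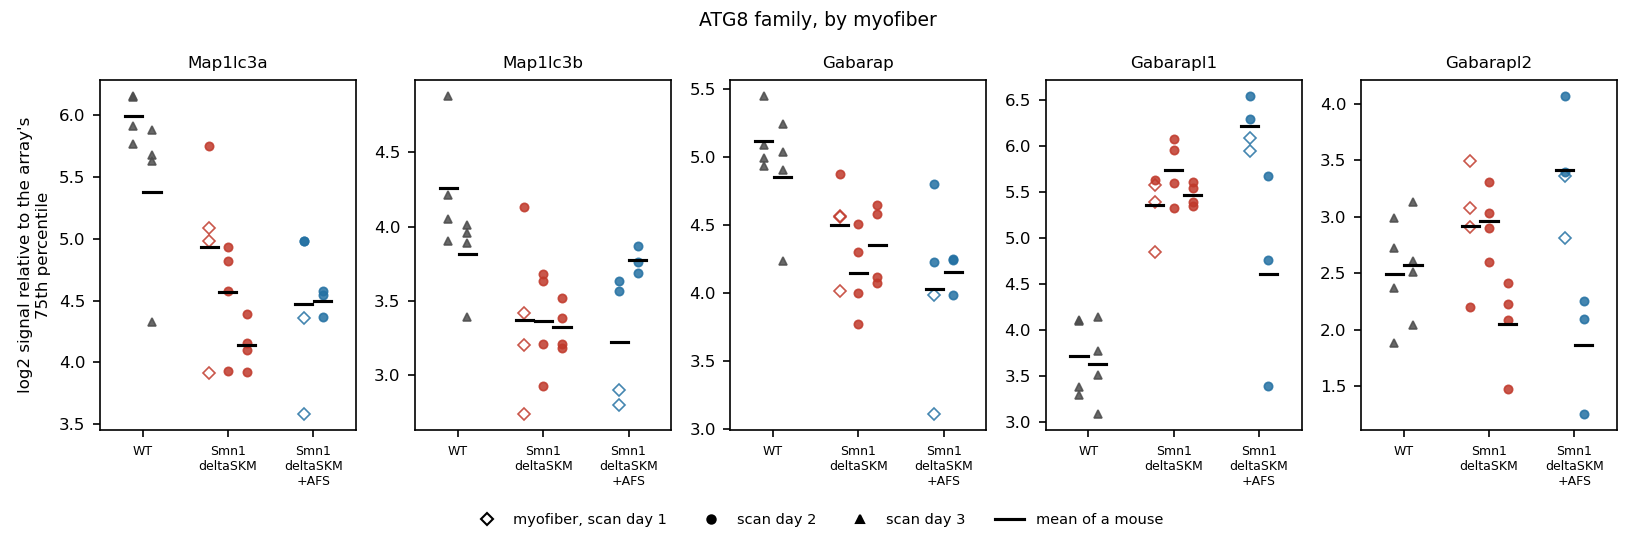
Log2 signal relative to the array's 75th percentile in each myofiber for the ATG8 genes, drawn as in the plot of initiation and conjugation genes. All 12 Smn1deltaSKM myofibers lie above all 8 WT myofibers for Gabarapl1, while the means of the mutant mice lie below WT for Map1lc3a, Map1lc3b and Gabarap.

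Neither cargo receptor was called. *Sqstm1*, which encodes the ubiquitin and ATG8 binding receptor p62, lay at 5.87 and 5.99 in WT and at 5.87, 5.79 and 6.08 in Smn1deltaSKM (-0.02, standard error 0.380, adjusted p = 0.976). *Nbr1*, a related receptor, had values on 5 WT and 10 Smn1deltaSKM arrays and differed by -0.47 (adjusted p = 0.456). Scaling moves values of this size: *Sqstm1* stood at 0.53 with normexp before quantile normalization and at 0.20 when arrays were centred on the probes detected everywhere.

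The calls between Smn1deltaSKM and WT rest on few mice. Without WT mouse 1 or WT mouse 2, which leaves a lone WT sample assumed to vary like the other groups, limma called 0 members and 0 genes in all, with 5 and 10 members at an unadjusted p under 0.05. With slide as a random block 0 members were called, beside 94 of 17059 genes. Without Smn1deltaSKM mouse 1 it was 16, beside 7385 genes, and without mouse 2 or mouse 3 it was 2, beside 1377 and 1590 genes. These counts rose and fell with those of all genes and are no result about the members. None of the 7 called members changed direction under the alternatives that gave it a value, which were 19 for *Atg10*, 20 for *Atg13* and *Atg3* and 21 for each of the others. Centring the arrays on probes detected everywhere moved the median of all genes from -0.14 to 0.08 and the share of calls that were lower from 64.7% to 44.0%. Relative to the median of all genes the members lay at -0.48 in both cases. They lay at -0.49 with quantile normalization, -0.45 with the authors' table and -0.36 with normexp. With only probes that had values on every array the median was -0.61 for members and -0.25 for all genes.

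AFS cells were injected to learn whether they restore the mutant muscle. Between Smn1deltaSKM+AFS and untreated Smn1deltaSKM limma called 0 of 27 members tested, beside 0% of 16648 genes, and 0 members had an unadjusted p under 0.05, as 532 genes did. The members lay slightly higher after treatment, with 19 differences above and 8 below 0 and a median of 0.15 beside 0.06 for all genes. Within scan day 2, with 3 untreated and 2 treated mice, 0 members were called and the median was 0.24, and on scan day 1, which held 1 mouse per group and allowed no test, it was 0.07. Mice of the groups did not overlap for 1 of 27 members, 3.7% beside 16.6% of all genes. This was *Ulk2*, at -0.74, -1.03 and -1.16 without and -0.60 and -0.30 with treatment (0.52, adjusted p = 0.9997). *Atg4d* had the widest gap, 0.86, from 0.51, 1.77 and 1.89 to 1.83 and 2.68 (adjusted p = 0.9997).

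Of the members called between Smn1deltaSKM and WT, none that was tested differed past the threshold between treated and untreated mutants. With 2 treated mice this shows neither that their level stayed nor that it returned. *Gabarapl1* lay at 6.22 and 4.61 in the treated mice, against 5.35, 5.74 and 5.47 untreated (-0.11), and 6 of 7 treated myofibers were above the highest WT myofiber. *Map1lc3a* lay at 4.47 and 4.5 (-0.06), *Ulk1* at 2.35 and 2.63 (0.11), *Atg13* at -0.51 and -1.02 (-0.30) and *Atg3* at 1.13 and 1.44 (0.27). *Atg4c* lay at -1.17 and -0.05, a gap of 0.57 between the groups that is smaller than the distance between the treated mice. The main probe of *Atg10* lay at -2.01 and -2.04 but was not tested, with values on 5 of 7 treated arrays. Its other probe, also not tested, lay at 0.11 and -0.29 in the treated mice, above -1.97, -1.04 and -1.01 in the untreated mutants. The adjusted p was 0.9997 for each that was tested.

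**Figure D5:**
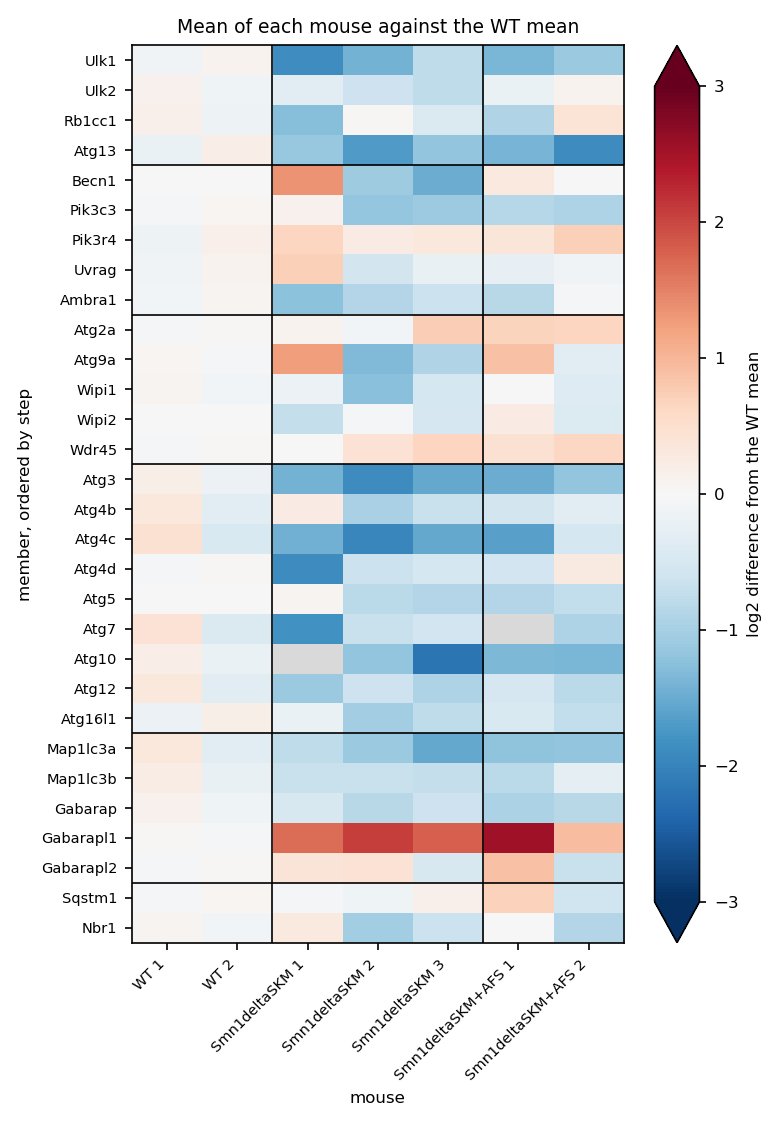
Mean of each mouse minus the mean of the WT mice, on the log2 scale, for the 30 members tested between Smn1deltaSKM and WT, ordered by step and separated by lines. Grey cells had no value; the conjugation block and Ulk1, Atg13 and Map1lc3a are mostly blue in all mutant columns, Gabarapl1 is red in all of them, and Becn1 and Atg9a are red in Smn1deltaSKM mouse 1.

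The treated mice were also set against WT, a comparison that shares its WT samples with the one above. Of 27 members tested 2 were called, both lower, which is 7.41% beside 7.77% of all genes called and 4.3% called lower. They were *Atg13* (0.66 and 1.08 in WT, -0.51 and -1.02 treated, -1.64, standard error 0.342, limma, adjusted p = 0.0338) and *Atg3* (2.78 and 2.46, 1.13 and 1.44, -1.34, standard error 0.306, limma, adjusted p = 0.0414). No treated myofiber with a value reached the WT range for either. *Gabarapl1* differed by 1.74 with both treated mice above WT but fell short of the threshold (adjusted p = 0.0629), with 0.94 without treated mouse 1 and 2.55 without treated mouse 2. *Map1lc3a* stood at -1.20 (adjusted p = 0.0748), *Ulk1* at -1.24 (adjusted p = 0.0816) and *Atg4c* at -1.08 (adjusted p = 0.162). The median of the members was -0.25 beside -0.04 for all genes, and 16 of 27 did not overlap between the groups, 12 lower and 4 higher, beside 67.9% of all genes. Both calls were lost without either WT mouse, without either treated mouse, without Smn1deltaSKM mouse 3, without the filter, with the authors' table or with slide as a random block, and that of *Atg3* also without Smn1deltaSKM mouse 2 and under every other scaling tried.

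Some members had too few values for the test. *Atg14*, which directs the PI3-kinase complex to the autophagosome, had values on 6 of 8 WT, 8 of 12 Smn1deltaSKM and 6 of 7 Smn1deltaSKM+AFS arrays, under the 75% needed. It was well above background on 8, 11 and 6 of these arrays, so that most of its missing values came from other spot flags. The WT mice lay at -0.20 and -0.47, the untreated mutants at -2.34, -2.46 and -2.07 and the treated at -1.95 and -2.06, with no overlap between WT and mutant myofibers that had a value. Among the values left out, 1 Smn1deltaSKM myofiber measured -1.15, above the lowest WT myofiber at -1.31. *Atg2b*, the relative of *Atg2a*, had values on all 8 WT but 4 and 1 mutant arrays, and *Atg4a* on 1 array of 27, both for want of signal above background. When dim signals were used as measured and no filter was set, limma gave *Atg14* -1.96 (adjusted p = 0.00968) and *Atg2b* -2.36 (adjusted p = 0.00946), the latter being below background on most mutant arrays, and *Atg4a* 0.05 (adjusted p = 0.930).

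Between myofibers of the same mouse the members varied about as much as other genes, with a median SD of 0.38 over 27 members and 0.33 over all 16648 genes. The smallest spread was that of *Atg13* (0.20) and *Pik3r4* (0.21), and the largest that of *Ambra1* (0.54), *Becn1* (0.53) and *Atg2a* (0.52). Of the other called members the spread was 0.31 for *Atg3*, 0.36 for *Gabarapl1*, 0.49 for *Ulk1*, 0.46 for *Atg4c* and 0.45 for *Map1lc3a*. Each of these is smaller than the difference of that gene from WT. It is a spread of myofibers and not of mice, so it does not measure how firm the difference is.

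Other genes of the pathway were read from lists that are not part of the machinery above. Of 14 other autophagosome genes 12 were tested between Smn1deltaSKM and WT and 6 were called, all lower, which is 50% beside 14.1% of all genes called lower. The widest differences were those of *Calcoco1*, a cargo receptor relative (-1.92, adjusted p = 0.010), *Vmp1*, a membrane protein of the seed membrane (-1.87, adjusted p = 0.0130), *Nrbf2*, a partner of the PI3-kinase complex (-1.55, adjusted p = 0.0251), and *Rubcn*, an inhibitor of that complex (-1.45, adjusted p = 0.0212). Of 13 genes of fusion with lysosomes 12 were tested and 3 called, 25% beside 21.7% of all genes and so near the background. They were the HOPS tether subunits *Vps16* (-1.35) and *Vps41* (-1.30) lower and *Vps18* higher (1.84, adjusted p = 0.0162).

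Of 25 regulators 24 were tested and 9 called, 1 higher and 8 lower, which is 37.5% beside 21.7% of all genes. These lists were chosen with results known, and nothing particular to them is drawn from the shares. *Prkab2*, an AMPK subunit (-2.11, adjusted p = 0.0268), and the mTORC1 inhibitors *Ddit4* (-1.92, adjusted p = 0.0210), *Deptor* (-1.77, adjusted p = 0.0453) and *Akt1s1* (-1.34, adjusted p = 0.0146) fell most, and *Bcl2*, which binds BECN1, rose (1.01, adjusted p = 0.0343). The medians of the lists were -1.02, -0.64 and -0.80 in the order given. None of their genes was called between treated and untreated mutants. In the treated mice against WT calls were made for *Vmp1* (-2.0), *Calcoco1* (-1.64) and *Ddit4* (-2.0), and *Vps33a*, a further tether subunit, was called there at 1.34 (limma, adjusted p = 0.0437).

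RefSeq promoter windows (build GRCm38.p6, 250 bases before to 50 after a start) were found for 28 of the 34 genes, 31 windows in all. They were searched on both strands for CACGTG, the core of the E-box that TFEB and TFE3 bind and a palindrome, and for GTAAACA, a FOXO motif. CACGTG was present in 4 of 31 windows (12.9%) beside 7.15% of 32851 windows of all genes, and GTAAACA in 0 (0%) beside 3.65%, so that no member window holds both. The windows with CACGTG belong to *Atg3*, *Atg5*, *Atg7* and *Atg14*, and that of *Atg3* is the only member window that holds it at 2 places, 94 and 71 bases before the start. This stretch is printed because *Atg3* had the lowest p of the members, with capitals for the motif.
Atg3, chr16:45158727-45158771, plus strand: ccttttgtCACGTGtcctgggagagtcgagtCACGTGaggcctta
Of the genes of these factors *Tfeb* was called lower in Smn1deltaSKM (-1.27, limma, adjusted p = 0.0220), named here after its value was seen. *Tfe3* differed by 0.08, *Foxo3* by -0.75 and *Foxo1* by -0.82 (limma, adjusted p = 0.886, 0.112 and 0.401). *Mitf*, also among the regulators, differed by -0.03 (adjusted p = 0.964). A link between these genes and the motifs was not tested. The *Gabarapl1* window holds neither motif.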

How the data were processed

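Agilent Feature Extraction 10.7.3.1, per the labels, gave the background-subtracted intensity of each spot in the deposited scanner files, and the authors' value table of the series holds intensities on a linear scale, normalized between arrays, with spots at or near background left out, so that the medians of the remaining values ran from 57.2 to 177.0. Here log2 of the deposited processed intensity was set relative to the 75th percentile of its array. Spots not found, not well above background or non-uniform were left out, and replicate spots were averaged to 1 value a probe. A probe needed values on 75% of arrays, over the 20 WT and Smn1deltaSKM arrays for their comparison and over all 27 arrays otherwise, and the brightest probe stood for a gene. Myofibers were averaged per mouse (7 mice), since genotype and treatment belong to the mouse, and limma 3.58.1 in R 4.3.3 compared the groups in 1 model with Benjamini-Hochberg adjustment over all genes. The study's own test took myofibers as replicates, which is given as an alternative. Steps were tested on simulated data.

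The members, the other pathway lists and the markers were chosen with earlier results of these data known. Every member is named by step, with full statistics for those called or with probes that disagree. Of the other lists at most 4 called genes each are named. Regulators named beyond these are *Bcl2*, the only 1 called higher, *Tfeb*, for the motif it binds, and *Tfe3*, *Foxo3*, *Foxo1* and *Mitf*, which were not called. No p was adjusted over a list and no list was tested as a set. The alternatives were the replicate unit, a block by myofiber number, the normalization, the background correction, the authors' table, the filter, the probes of a gene, slide, scan day, the threshold and each mouse left out, and, added after the data were seen, the removal of scan day 1. Intensities of arrays carry no read depth, and the number of mice limits the precision. Older symbols were matched through the RefSeq gene table, and promoter windows come from RefSeq.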

Additional observations from a re-analysis of the deposited data

Results flagged for a closer look

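Over the myofibers of the WT and the Smn1deltaSKM+AFS group, the lowest or highest value of 7 of 59 sets of member values lay far from the rest by Dixon's criterion, where chance flags about 1 in 20. In WT these were *Rb1cc1* at 1.31 and *Atg7* at 2.75, each the highest, and *Map1lc3a* at 4.33 and *Gabarap* at 4.23, each the lowest. The last pair came from the same array, WT myofiber 8 of mouse 2. In Smn1deltaSKM+AFS they were *Pik3c3* at 0.63, *Wipi1* at 3.31 and *Wipi2* at 1.64, each the highest and all from myofiber 3 of mouse 1, scanned on day 1. The nearest other values were 0.10, 1.35 and 0.56. The cause was not tested.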

How the results depend on the processing

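Between Smn1deltaSKM and WT the 7 calls became 16 with myofibers as replicates and no block, beside 9269 of 17059 genes, and 4 with normexp, beside 2655. They became 0 with slide as a random block, beside 94 genes, and 0 at an adjusted p under 0.01. Without scan day 1, added after the data were seen, they were 11, beside 5099 genes. With only probes that had values on every array 3 members were called, beside 2550 of 10818 genes. *Atg13*, *Atg3* and *Atg10* had no such probe and were not tested there, and *Atg4c* was tested on its other probe. Leaving out 1 mouse gave 0 to 16 calls. The median of the members stayed between -0.77 and -0.40 throughout. Between treated mice and WT the 2 calls became 5 with myofibers and mouse as a random block, beside 3393 of 16648 genes, and 12 with no block, beside 6937. They became 1 with quantile normalization, 1 with centred arrays, 0 with the authors' table, 0 with slide as a random block, and 0 to 8 with 1 mouse left out. With only probes that had values on every array *Atg13* and *Atg3* were not tested, so their calls could not recur, and 0 other members were called. Between treated and untreated mutants 0 members were called under each alternative, and their median of 0.15 became 0.0843 with normexp, 0.0564 with centred arrays, 0.0932 with the authors' table, 0.1606 with slide as a random block, 0.0739 within scan day 1, 0.24 within scan day 2 or without scan day 1, and 0.1003 to 0.2216 with 1 mouse left out.

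The myofiber number names samples and does not pair them. For this, deviations of myofibers from the mean of their mouse were correlated between mice. The mean r was 0.03 (-0.29 to 0.70) for the same number and -0.008 (-0.67 to 0.57) for other numbers. With the myofiber number as a replicate block 9 members were called between Smn1deltaSKM and WT, 4 between treated mice and WT and 0 between treated and untreated mutants. *Uvrag* then stood at 0.0057 in Smn1deltaSKM against WT.

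Over all genes the 3705 calls between Smn1deltaSKM and WT became 9269 with myofibers and no block, 94 with slide as a random block, and 0, 0, 7385, 1377 and 1590 without WT mouse 1, WT mouse 2 and Smn1deltaSKM mouse 1, 2 or 3. Between treated and untreated mutants the 0 calls were 20 without a block. With slide as a fixed block these groups meet only on slide 3, which held 1 array of each. The count of calls from that fit is therefore not given.

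Directions turned only for members not called in the comparison concerned. Against WT *Atg12* stood at 0.38 with the authors' table and 0.35 without the filter, both on its other probe, and *Wdr45* at -0.18 for the mean of its probes. With slide as a random block *Becn1* stood at 0.11, *Gabarapl2* at -0.0275 and *Uvrag* at 0.30. Without scan day 1 *Gabarapl2* stood at -0.13. *Sqstm1* stood at 0.34 with quantile normalization, 0.53 with normexp, 0.20 with centred arrays and 0.34 with the authors' table, and *Uvrag* at 0.17 with centred arrays and 0.0752 with the measured signal kept, with or without the filter. With 1 mouse left out the difference ran for *Atg9a* from -1.12 to 0.17, for *Becn1* from -1.27 to 0.14, for *Gabarapl2* from -0.0462 to 0.41, for *Sqstm1* from -0.10 to 0.042 and for *Uvrag* from -0.40 to 0.24. In treated against untreated mutants *Atg3* stood at -0.27 with slide as a random block and -0.66 as a fixed block, *Gabarapl1* at 0.51, 0.49 and, with myofibers and no block, 0.0058, and *Ulk2* at -0.20 with slide fixed. With slide fixed the groups meet only on slide 3, which held 1 array of each. Leaving out 1 mouse, the difference ran for *Gabarapl1* from -0.91 to 0.70, for *Map1lc3a* from -0.26 to 0.13 and for *Ulk1* from -0.14 to 0.41. For treated against untreated mutants only members called between Smn1deltaSKM and WT, *Ulk2* and *Atg4d* are listed here. Others turned too, among them *Gabarapl2*, which kept its direction in 12 of 23 alternatives, and *Atg16l1*, in 15 of 23. The causes were not tested, except that *Atg12* and *Wdr45* changed probe. Arrays show no depth, and *Atg4a* and *Atg2b* were limited by signal near background.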
